A study of Mus musculus with 14 samples.

Results

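The 9 genes described here are *Clu*, *Anxa1*, *Anxa3*, *Ly6a*, *Areg*, *Ereg*, *Cyr61*, *Ctgf* and *Ankrd1*, known from regenerating or fetal-like intestinal epithelium or as targets of the transcriptional coactivator YAP. They were picked by name, in part because *Clu* is high in the double knockout, out of 18781 genes in the expression table, and all 9 were among the 12802 genes abundant enough to be tested (a mean log2 value of at least 3.32, equal to 10 on the linear scale). RNA was sequenced from untreated mouse small intestinal organoids, which are epithelial cultures grown from crypts, here in IntestiCult medium. Their genotypes were ATG16L1flox/flox_RNaseH2Bflox/flox without Cre (WT, n = 4), RNaseH2Bflox/flox with VillinCre+/- (*Rnaseh2b*ΔIEC, n = 2), ATG16L1flox/flox with VillinCre+/- (*Atg16l1*ΔIEC, n = 4) and both floxed genes with VillinCre+/- (*Atg16l1/Rnaseh2b*ΔIEC, n = 4). Villin-Cre removes the floxed exons in intestinal epithelial cells. *Rnaseh2b* encodes a subunit of RNase H2, which takes misincorporated ribonucleotides out of DNA, and *Atg16l1* encodes a core protein of autophagy. The question is how these genes behave when ribonucleotide repair, autophagy or both are lost in the epithelium.

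When the intestinal epithelium is injured, part of it leaves the adult crypt program and switches on genes of the fetal gut. *Ly6a* encodes the surface protein Sca-1, *Anxa1* and *Anxa3* encode annexins that bind membrane phospholipids, and *Clu*, which encodes the secreted chaperone clusterin, marks rare revival stem cells that appear after damage. This switch is known to depend on YAP and TAZ, coactivators that the Hippo kinases keep out of the nucleus and that bind DNA through TEAD proteins. *Cyr61* (also named *Ccn1*), *Ctgf* (also *Ccn2*) and *Ankrd1* are classical TEAD targets. Amphiregulin (*Areg*) and epiregulin (*Ereg*) are ligands of the EGF receptor, whose signal drives growth of crypt cells.

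The targeted genes mark the groups. On the deposited log2 scale, WT libraries held *Rnaseh2b* at 8.41 to 8.70 and *Atg16l1* at 9.43 to 9.54. *Rnaseh2b* was at 7.15 to 7.21 in *Rnaseh2b*ΔIEC and at 7.68 to 7.92 in *Atg16l1/Rnaseh2b*ΔIEC organoids, while *Atg16l1*ΔIEC libraries kept 8.48 to 8.72. *Atg16l1* was at 6.73 to 7.35 in *Atg16l1*ΔIEC and at 8.14 to 8.57 in *Atg16l1/Rnaseh2b*ΔIEC organoids, while *Rnaseh2b*ΔIEC libraries kept 9.52 to 9.53. Both RNAs were thus less reduced in the double knockout than in the matching single knockout (differences of 0.63 for *Rnaseh2b* and 1.46 for *Atg16l1*, limma adjusted p = 0.00074 and 2e-05), and every comparison with the double knockout carries this. All WT libraries were run in lane 1, both single knockouts in lane 2, and the double knockout as 2 libraries in each. Libraries 1 and 2 of a genotype, and libraries 3 and 4, deviated together from their genotype mean (r of 0.31 to 0.85 within the 6 pairs, -0.89 to -0.63 between pairs of a genotype), which the labels do not mention. Each pair shared its level of the female-specific RNA *Xist*. WT 3 and 4, *Atg16l1/Rnaseh2b*ΔIEC 3 and 4 and *Atg16l1*ΔIEC 1 and 2 were Xist-high (13.24 to 13.78), and the other 8 libraries, both *Rnaseh2b*ΔIEC libraries among them, were Xist-low (7.56 to 7.80) with high Y-linked RNAs. Pair, *Xist* side and, in the double knockout, lane cannot be told apart, and the p-values below measure the spread between libraries that may share an animal or a culture. The 10 epithelial markers summed to 167913 to 187058 on the linear scale in every library. Of 12 stromal, endothelial and muscle markers 3 passed the filter (*Vim*, *Pdgfrb*, *Pecam1*), and the 9 present in the expression table summed to 255 to 378. Of 10 immune markers 3 passed (*Itgam*, *Lyz2*, *Cd68*), and the 9 present in the expression table summed to 120 to 159. *Cd3e*, *Cd79a*, *Adgre1* and *Itgax* lay below 0 on the log2 scale.

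Promoter sequence in RefSeq (GRCm38.p6) was at hand for 4 of the 9 genes and is shown because TEAD proteins, through which YAP acts, bind the letters GGAATG. Each window runs from 250 bases before the transcription start to 50 after it, in the direction of transcription. Capitals mark a match to the TEAD core GGAATG or its reverse complement, or to the cyclic AMP response element TGACGTCA, and positions are counted from the start.
Cyr61, chr3:145649936-145650235, minus strand, 1 TEAD core at -103: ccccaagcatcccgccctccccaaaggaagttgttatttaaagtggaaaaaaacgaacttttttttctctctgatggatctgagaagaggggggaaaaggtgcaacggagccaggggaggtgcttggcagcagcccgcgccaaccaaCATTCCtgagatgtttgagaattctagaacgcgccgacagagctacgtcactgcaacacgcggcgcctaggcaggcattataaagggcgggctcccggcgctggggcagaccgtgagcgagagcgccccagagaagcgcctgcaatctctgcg
Ankrd1, chr19:36119795-36120094, minus strand, 2 TEAD cores at -210 and -123: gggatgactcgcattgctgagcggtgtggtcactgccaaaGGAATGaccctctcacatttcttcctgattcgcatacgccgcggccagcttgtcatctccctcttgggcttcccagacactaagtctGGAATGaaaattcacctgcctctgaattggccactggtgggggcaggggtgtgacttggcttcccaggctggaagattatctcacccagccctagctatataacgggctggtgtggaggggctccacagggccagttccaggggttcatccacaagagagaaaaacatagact
Anxa1, chr19:20390622-20390921, minus strand, 1 TEAD core at -236: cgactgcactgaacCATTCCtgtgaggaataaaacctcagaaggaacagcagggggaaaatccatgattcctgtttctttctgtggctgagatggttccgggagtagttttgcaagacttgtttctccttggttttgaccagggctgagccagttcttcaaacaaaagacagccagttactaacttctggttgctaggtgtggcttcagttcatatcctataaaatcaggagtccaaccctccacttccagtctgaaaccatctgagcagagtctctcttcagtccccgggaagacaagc
Areg, chr5:91139349-91139648, plus strand, no TEAD core, 1 cyclic AMP element at -61: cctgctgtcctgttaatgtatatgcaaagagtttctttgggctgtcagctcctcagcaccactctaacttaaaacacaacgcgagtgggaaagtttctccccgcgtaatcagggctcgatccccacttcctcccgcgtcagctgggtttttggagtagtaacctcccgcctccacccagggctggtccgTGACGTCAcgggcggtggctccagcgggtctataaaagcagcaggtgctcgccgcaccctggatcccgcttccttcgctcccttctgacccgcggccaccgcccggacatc
Of 32817 such windows, 14.7% held a TEAD core and 1.79% the cyclic AMP element on either strand, and the AP-1 letters TGANTCA, in 7.81% of windows, were in none of the 4. A match describes the letters only.

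**Figure D1:**
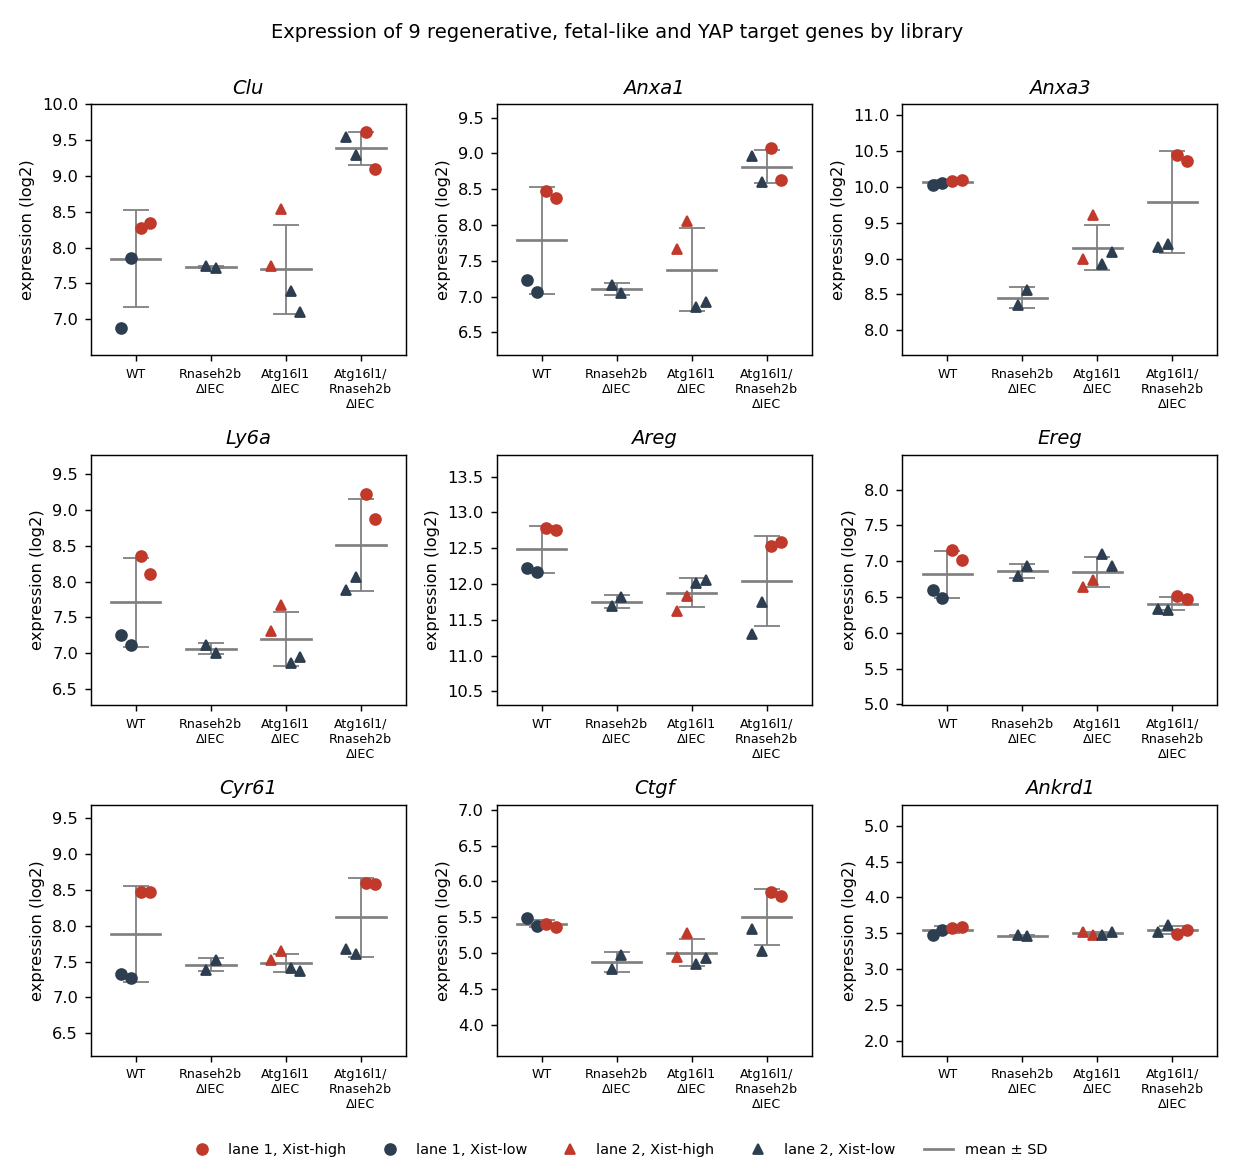
Expression (log2, vertical axis) of the 9 genes in every library, by genotype. Circles are lane 1, triangles lane 2, red Xist-high and dark Xist-low libraries, and grey lines give mean ± SD (n = 4, 2, 4 and 4). Every panel spans the same range. *Clu* and *Anxa1* were above all other genotypes in the double knockout, *Anxa3* was lowest in *Rnaseh2b*ΔIEC, and *Cyr61* split by *Xist* side in WT and the double knockout.

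*Clu* (ENSMUSG00000022037, chromosome 14, 65968483 to 65981547, plus strand, GRCm38 as for all genes here) was highest in the double knockout. Its log2 values were 9.54, 9.30, 9.61 and 9.10 in the 4 *Atg16l1/Rnaseh2b*ΔIEC libraries. They were 6.88, 7.86, 8.28 and 8.35 in WT, 7.74 and 7.72 in *Rnaseh2b*ΔIEC, and 7.75, 8.54, 7.40 and 7.10 in *Atg16l1*ΔIEC organoids. The lowest double knockout library was above the highest of the other 10. The mean of 9.39 ± 0.23 (SD, n = 4) stood 1.54 above WT (2.92-fold on the linear scale), 1.65 above *Rnaseh2b*ΔIEC and 1.69 above *Atg16l1*ΔIEC. Because *Clu* in the double knockout helped to choose the genes, these comparisons, and those of all 9 genes with the double knockout, are given as a description without a test. Within lane 1 the double knockout was 1.51 above WT, and within lane 2 it was 1.68 above *Rnaseh2b*ΔIEC and 1.72 above *Atg16l1*ΔIEC. The other 3 genotypes followed each other closely in their means (7.84, 7.73 and 7.70) and overlapped, and neither single knockout passed the test against WT. The *Rnaseh2b*ΔIEC difference was -0.11 (95% confidence interval -0.96 to 0.73, limma adjusted p = 0.86) and the *Atg16l1*ΔIEC difference was -0.15 (-0.84 to 0.54, limma adjusted p = 0.78).

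*Anxa1* (ENSMUSG00000024659, chromosome 19, 20373428 to 20390944, minus strand) followed *Clu* most closely of the 9 genes (r = 0.92 over 14 libraries). It stood at 8.96, 8.60, 9.07 and 8.63 in *Atg16l1/Rnaseh2b*ΔIEC organoids. WT libraries gave 7.23, 7.06, 8.48 and 8.37, *Rnaseh2b*ΔIEC 7.16 and 7.05, and *Atg16l1*ΔIEC 7.66, 8.05, 6.86 and 6.93. Again no other library reached the double knockout, although WT 3, at 8.48, lay just below its lowest value. The means differed by 1.03 from WT, 1.71 from *Rnaseh2b*ΔIEC and 1.44 from *Atg16l1*ΔIEC, or 2.04-, 3.27- and 2.71-fold. *Clu* and *Anxa1* are thus 2 of the 9 genes whose double knockout libraries all lay above the other 10, as did 341 of the 12802 genes tested (2.66%). None of the 9 lay below all other libraries in the double knockout, as 412 genes did (3.22%). Against WT, *Rnaseh2b*ΔIEC differed by -0.68 (-1.55 to 0.19, limma adjusted p = 0.23) and *Atg16l1*ΔIEC by -0.41 (-1.12 to 0.30, limma adjusted p = 0.4).

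*Ly6a* (ENSMUSG00000075602, chromosome 15, 74994877 to 74998031, minus strand) was also highest on average in the double knockout, but only part of its libraries stood out. They read 7.89, 8.06, 9.22 and 8.88, against 7.25, 7.12, 8.36 and 8.11 in WT. *Rnaseh2b*ΔIEC gave 7.12 and 7.01, and *Atg16l1*ΔIEC 7.31, 7.68, 6.86 and 6.95. The double knockout was above every single knockout library (1.45 and 1.31 on average) and overlapped WT, from which its mean differed by 0.81. Within the Xist-low libraries it was 0.80 above WT, and within the Xist-high libraries 0.82 above. *Ly6a* sits in a cluster of similar genes, and how reads shared with its relatives were counted is not given in the sources used here.

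*Anxa3* (ENSMUSG00000029484, chromosome 5, 96793339 to 96845966, plus strand) behaved unlike *Clu*. It was steady in WT at 10.03, 10.06, 10.08 and 10.10, low in *Rnaseh2b*ΔIEC at 8.35 and 8.56, and intermediate in *Atg16l1*ΔIEC at 9.0, 9.61, 8.92 and 9.09. In the double knockout it split, with 9.16 and 9.20 in libraries 1 and 2 and 10.45 and 10.36 in libraries 3 and 4, so that 1 pair matched *Atg16l1*ΔIEC and the other lay above WT. Against WT, *Anxa3* fell by 1.61 on the log2 scale in *Rnaseh2b*ΔIEC (0.327 of the WT level, standard error 0.32, limma adjusted p = 0.0034), lower in both libraries than in all 4 WT libraries. It fell by 0.91 in *Atg16l1*ΔIEC (0.532 of the WT level, standard error 0.26, limma adjusted p = 0.028), lower in 4 of 4 libraries. *Rnaseh2b*ΔIEC was below every *Atg16l1*ΔIEC library by 0.70 on average, which did not pass the adjusted test (limma adjusted p = 0.21). In these comparisons with WT, lane and genotype cannot be told apart without the double knockout, and a lane term taken from it brought the difference to -0.39 in *Rnaseh2b*ΔIEC and turned it to 0.32 in *Atg16l1*ΔIEC, neither of them called. The *Atg16l1*ΔIEC call was also lost when paired libraries were averaged or treated as correlated and when any of 7 of the 8 libraries compared was left out (differences of -0.83 to -0.92), *Atg16l1*ΔIEC 2 being the exception, and the *Rnaseh2b*ΔIEC call when they were averaged.

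The ligand genes *Areg* and *Ereg* lie next to each other on chromosome 5 (*Areg*, ENSMUSG00000029378, 91139599 to 91148432, and *Ereg*, ENSMUSG00000029377, 91074622 to 91093646, both on the plus strand, 45952 bases apart) but did not share a pattern across genotypes. *Areg* was the most abundant of the 9 genes, at the 92.5 percentile of all genes tested by its log2 mean, a level not scaled for gene length. Its values were 12.23, 12.17, 12.78 and 12.75 in WT, 11.69 and 11.82 in *Rnaseh2b*ΔIEC, and 11.62, 11.83, 12.02 and 12.05 in *Atg16l1*ΔIEC. They were, in the double knockout, 11.30, 11.75, 12.53 and 12.59, a range as wide as that over all other genotypes together. Every single knockout library lay below every WT library, yet neither difference passed (-0.73 and -0.60, limma adjusted p = 0.093 and 0.11). *Ereg* read 6.60, 6.48, 7.16 and 7.02 in WT, 6.79 and 6.93 in *Rnaseh2b*ΔIEC, and 6.64, 6.73, 7.10 and 6.93 in *Atg16l1*ΔIEC. The double knockout was lowest and narrow, at 6.33, 6.32, 6.51 and 6.47. It lay below every single knockout library (differences of -0.45 and -0.44) and overlapped 1 WT library (-0.41). Against WT, neither single knockout passed for *Ereg*, with 95% intervals of -0.32 to 0.41 and -0.27 to 0.33.

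Of the TEAD targets, *Cyr61* (ENSMUSG00000028195, chromosome 3, 145646976 to 145649981, minus strand) split into 2 levels. It was 8.47 in WT 3 and in WT 4 and 8.60 and 8.58 in double knockout libraries 3 and 4. The other 10 libraries lay between 7.27 and 7.68, including WT 1 and 2 at 7.33 and 7.27 and double knockout 1 and 2 at 7.68 and 7.61. No genotype therefore stood apart from WT, and the tested differences were -0.43 in *Rnaseh2b*ΔIEC and -0.39 in *Atg16l1*ΔIEC (limma adjusted p = 0.41 and 0.37). *Ctgf* (ENSMUSG00000019997, chromosome 10, 24595442 to 24598683, plus strand) was lower overall and followed *Anxa3* more than *Cyr61* (r = 0.92 and 0.71). It stood at 5.49, 5.38, 5.41 and 5.37 in WT, 4.78 and 4.97 in *Rnaseh2b*ΔIEC, 4.95, 5.28, 4.85 and 4.93 in *Atg16l1*ΔIEC, and 5.34, 5.03, 5.85 and 5.79 in the double knockout. It fell by 0.54 in *Rnaseh2b*ΔIEC against WT (standard error 0.19, limma adjusted p = 0.046, lower in both libraries), a call lost without any 1 of the 6 libraries (differences of -0.44 to -0.64), and turned to 0.09 with a lane term. In *Atg16l1*ΔIEC the difference of -0.41 did not pass (limma adjusted p = 0.07), although all 4 libraries were below WT. *Ankrd1* (ENSMUSG00000024803, chromosome 19, 36111961 to 36120099, minus strand) was barely above the filter, between 3.46 and 3.62 in every library, where the deposited scale compresses differences.

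Counted together, 2 of the 9 genes were called in *Rnaseh2b*ΔIEC against WT (*Anxa3* and *Ctgf*, both lower), where 26.7% of all genes tested were called, 12.3% lower and 14.4% higher. In *Atg16l1*ΔIEC against WT 1 of 9 was called (*Anxa3*, lower), beside 19.1% of all genes, 10.4% lower and 8.73% higher. Between the 2 single knockouts 0 of 9 passed limma's adjusted test and 1 (*Anxa3*) had an unadjusted p under 0.05, beside 6.81% of all genes called, 4.34% higher and 2.47% lower. These shares are near those of all genes. The median of the 9 differences was -0.54 in *Rnaseh2b*ΔIEC and -0.41 in *Atg16l1*ΔIEC against WT, with medians of 0.00 over all genes, and 8 of 9 differences were below 0 in each. Both comparisons use the same WT libraries, all in lane 1. With a lane term taken from the double knockout, *Ly6a* (0.43), *Areg* (0.31), *Cyr61* (0.52) and *Ctgf* (0.09) turned positive in *Rnaseh2b*ΔIEC. *Clu* (-0.17), *Anxa1* (-0.61), *Anxa3* (-0.39) and *Ankrd1* (-0.14) stayed negative. In *Atg16l1*ΔIEC *Anxa3* (0.32), *Ly6a* (0.56), *Areg* (0.44), *Cyr61* (0.55) and *Ctgf* (0.22) turned positive. *Clu* (-0.20), *Anxa1* (-0.34) and *Ankrd1* (-0.10) stayed negative. None of these was called. Libraries did not overlap for 5 genes in *Rnaseh2b*ΔIEC (*Anxa3*, *Ly6a*, *Areg*, *Ctgf* and *Ankrd1*, all lower, beside 27.0% of all genes) and for 3 in *Atg16l1*ΔIEC (*Anxa3*, *Areg* and *Ctgf*, all lower, beside 13.1%). Between the single knockouts *Anxa3* and *Ankrd1* were apart and lower in *Rnaseh2b*ΔIEC (beside 17.4% of genes) and 0 were apart and higher (beside 20.4%).

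**Figure D2:**
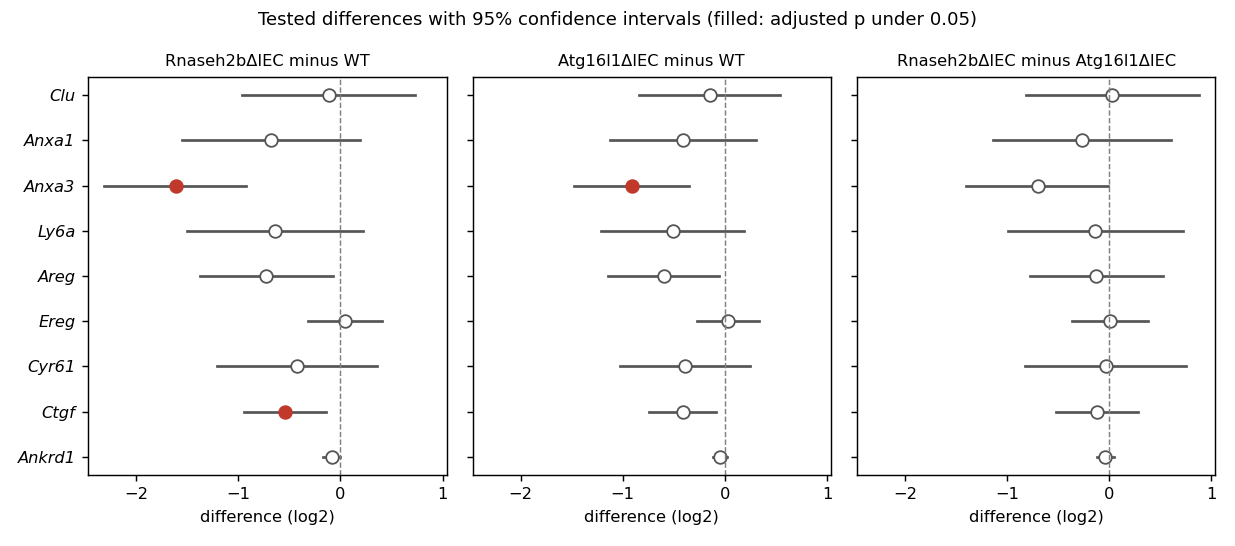
Differences in mean log2 expression (horizontal axis) of the 9 genes in the 3 comparisons that hold no double knockout library, with 95% confidence intervals from limma. Filled points passed the adjusted threshold of 0.05, which were *Anxa3* in both single knockouts against WT and *Ctgf* in *Rnaseh2b*ΔIEC.

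As a description, 5 of 9 means in the double knockout were above WT, 8 above *Rnaseh2b*ΔIEC and 8 above *Atg16l1*ΔIEC, with *Ereg* the exception against both single knockouts. These comparisons share the double knockout libraries. The libraries were apart and higher for 2 genes against WT (beside 11.4% of all genes), 7 against *Rnaseh2b*ΔIEC (24.1%) and 3 against *Atg16l1*ΔIEC (12.1%). Apart and lower were 0 against WT (10.9%) and *Ereg* against *Rnaseh2b*ΔIEC (25.8%) and *Atg16l1*ΔIEC (11.8%). By size, *Clu* held rank 2, *Anxa1* rank 11 and *Ly6a* rank 28 of 12802 differences from WT, whereas *Cyr61* (0.24) held rank 562, *Ctgf* (0.09) rank 2785 and *Areg* (-0.44) rank 12614. Against *Atg16l1*ΔIEC the ranks of *Clu*, *Anxa1* and *Ly6a* were 4, 8 and 10. Only 8 genes in all (0.0625%) were at least 1 above WT with libraries apart, among them *Clu*, *Anxa1* and another annexin gene, *Anxa10*. The values differed when only lane 1 was used, whose double knockout libraries are also the Xist-high pair. Within lane 1 the double knockout libraries were above all WT libraries also for *Ly6a* (1.34), *Cyr61* (0.71), *Ctgf* (0.41) and *Anxa3* (0.34, against -0.27 over both lanes), while *Areg* (0.08) and *Ereg* (-0.33) overlapped WT. The share of all genes apart in this comparison of 2 with 4 libraries was not computed. Against the Xist-high WT libraries alone, also of lane 1, the differences of these first 4 genes were 0.82, 0.12, 0.43 and 0.32.

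The spread within a genotype was large for several of these genes and mostly ran along the pairs. *Clu* also differed within pairs, by 0.98 between WT 1 and 2 and by 0.79 between *Atg16l1*ΔIEC 1 and 2. Between libraries 3 and 4 it differed by 0.07 in WT and 0.30 in *Atg16l1*ΔIEC. The gap was described after the values had been seen, as the mean of the Xist-high pair minus that of the Xist-low pair. In WT it was 1.29 for *Anxa1*, 1.17 for *Cyr61*, 1.05 for *Ly6a*, 0.95 for *Clu*, 0.57 for *Areg* and 0.55 for *Ereg*, but 0.04 for *Anxa3* and -0.05 for *Ctgf*. The 1st and 99th percentiles of all genes were -0.52 and 0.45, and only 12 of 12802 genes (0.0937%) reached 1. Beside *Xist* these were *Anxa1*, *Cyr61*, *Ly6a*, *Msln*, *Myof*, *S100a6*, *Ano1*, the basement membrane collagens *Col4a1* and *Col4a2*, *Prss32* and *Gm32742*. In *Atg16l1*ΔIEC the gap was 0.96 for *Anxa1*, 0.90 for *Clu* and 0.59 for *Ly6a*, but 0.19 for *Cyr61*, -0.31 for *Areg* and -0.33 for *Ereg*. *Clu*, *Anxa1* and *Xist* were the only genes (0.0234%) with a gap of 0.90 or more, after rounding, in both. That cut equals the *Clu* gap in *Atg16l1*ΔIEC, so the small share is not a result about these genes. None of the 9 was among the 7 genes (0.0547%) at least 1 higher in *Atg16l1*ΔIEC libraries 3 and 4 than in 1 and 2. The picture turned in the double knockout. *Clu* (-0.06) and *Anxa1* (0.07) were level across the pairs, whereas *Anxa3* (1.23), *Ly6a* (1.07), *Areg* (1.04), *Cyr61* (0.94) and *Ctgf* (0.63) were higher in the Xist-high libraries, which were also those of lane 1. *Ly6a* was above 0.5 in all 3 genotypes, with *Ano1*, *Col4a1*, *Msln* and *Xist* (5 genes, 0.0391%). The design holds 1 pair of each kind per genotype, so none of these gaps was tested.

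**Figure D3:**
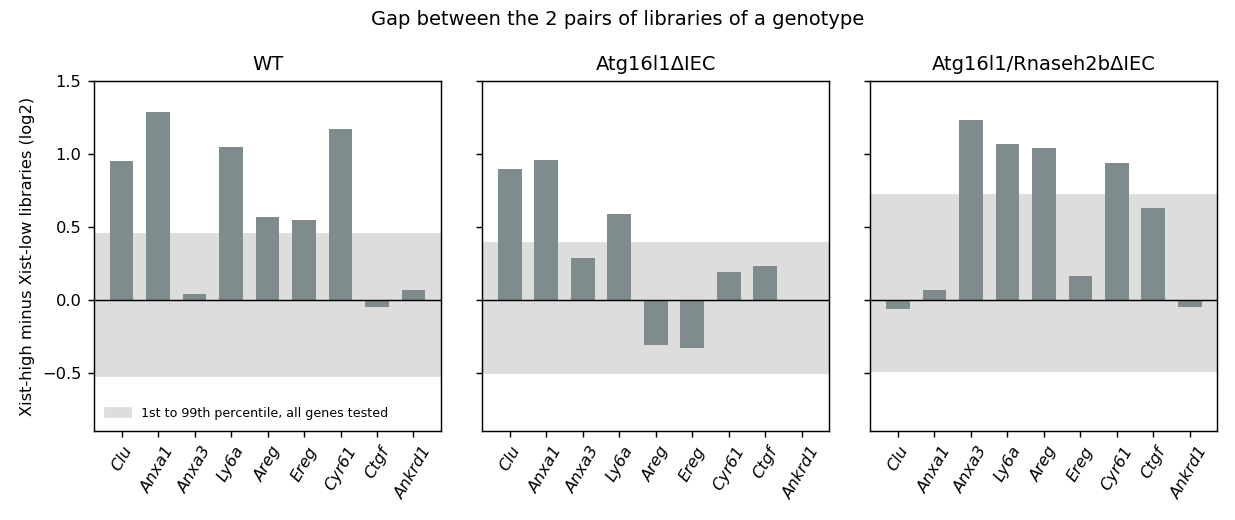
Mean of the 2 Xist-high libraries minus mean of the 2 Xist-low libraries (log2, vertical axis) for the 9 genes in WT, *Atg16l1*ΔIEC and *Atg16l1/Rnaseh2b*ΔIEC organoids. The grey band spans the 1st to 99th percentile of all 12802 genes. *Clu* and *Anxa1* lie above the band in WT and *Atg16l1*ΔIEC and near 0 in the double knockout.

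The double knockout was also set against libraries of the same *Xist* side. In the Xist-low libraries, with 2 per genotype, *Clu* averaged 9.42 in the double knockout, against 7.37 in WT, 7.73 in *Rnaseh2b*ΔIEC and 7.25 in *Atg16l1*ΔIEC. In the order WT, *Rnaseh2b*ΔIEC, *Atg16l1*ΔIEC and double knockout, *Anxa1* averaged 7.14, 7.10, 6.89 and 8.78 and *Ly6a* 7.18, 7.07, 6.91 and 7.98. For these 3 genes and *Cyr61* (7.65, against 7.30, 7.46 and 7.39) both double knockout libraries were above all others on that side, as for 17.6% of all genes, a share that the small groups make large. *Ereg* was below all others, as were 17.9% of genes. In the Xist-high libraries, also 2 per genotype, the double knockout was above WT and *Atg16l1*ΔIEC for *Clu*, *Anxa1*, *Anxa3*, *Ly6a*, *Cyr61* and *Ctgf*. The share of all genes so placed was not computed for the Xist-high libraries. There the double knockout exceeded WT by 1.04 for *Clu* and 0.42 for *Anxa1*, less than the 2.05 and 1.64 of the Xist-low libraries. *Anxa3* kept its order in the Xist-low libraries (10.04, 8.45, 9.01 and 9.18), and the double knockout was 0.86 below WT. *Ereg* was lowest in the double knockout on either side (6.33 and 6.49).

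*Fos* tracked *Cyr61* (r = 0.99 over the 14 libraries, and 0.99 after subtracting genotype means). It was 9.43 and 9.31 in double knockout 3 and 4, 9.34 and 9.32 in WT 3 and 4, and 8.43 to 8.83 in all other libraries. *Fos* belongs to the immediate early genes, which respond within minutes to growth factors, stress or handling. Of 12 immediate early and heat shock genes 6 were tested. All 6 (*Fos*, *Egr1*, *Atf3*, *Dusp1*, *Klf4* and *Klf6*) were higher in the Xist-high pair of WT (median gap 0.85) and of the double knockout (0.64), and 4 of 6 in *Atg16l1*ΔIEC (0.08). *Anxa1*, *Cyr61*, *Ly6a*, *Clu*, *Areg* and *Ereg*, whose WT gaps are given above, moved in the same direction as these genes across the WT pairs, and their part in the gaps was not tested. In *Atg16l1*ΔIEC, where the *Fos* gap was 0.13, *Clu* (0.90), *Anxa1* (0.96), *Ly6a* (0.59) and *Cyr61* (0.19) were higher in the Xist-high pair. *Areg* (-0.31) and *Ereg* (-0.33) were lower there. The *Fos* gap in the double knockout was 0.62. *Ly6a* (1.07), *Areg* (1.04), *Cyr61* (0.94) and *Ereg* (0.16) were also higher in that pair, and *Clu* (-0.06) and *Anxa1* (0.07) were near level. Double knockout libraries 1 and 2 had *Fos* at 8.68 and 8.83, against 8.52 to 8.72 in the single knockouts, and *Clu* at 9.54 and 9.30. The summed level of the list was 4659 to 7817 in the double knockout and 5000 to 8516 in WT on the linear scale.

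Ranked by Pearson's r over 14 libraries, which share genotypes and pairs, the genes most like *Clu* were *Serpinb9b*, *Cep290*, *Ruvbl1*, *Pdia5* and *Chst4* (0.94 to 0.95). Those most like *Anxa1* were *S100a6*, *Dlg5* and *Myof* (0.99 each). *Slc1a4*, *Phldb2* and *Slc41a1* came closest to *Anxa3* (0.96 to 0.98), and *Creb5*, *Ly6d* and *Samd5* to *Ly6a* (0.97 to 0.98). For *Areg* they were *Rhbdf1*, *Gfpt1* and *Fam135a* (0.97 to 0.98), and for *Ereg* *Ms4a18*, *Slc1a1* and *Tmem236* (0.89 to 0.96). *Cyr61* came with *Fos*, *Syt8* and *Sprr1a* (0.96 to 0.99), *Ctgf* with *Cgnl1*, *Itpr2* and *Tmem120b* (0.96 to 0.97), and *Ankrd1* with *Ppp1r3e*, *Zfp808* and *Cc2d1b* (0.80 to 0.87). Among the 9 genes, *Anxa1* and *Ly6a* (0.91) and *Ly6a* and *Cyr61* (0.90) ran together. *Clu* had r = 0.03 with *Areg* and -0.55 with *Ereg*, and the latter became 0.20 after genotype means were subtracted.

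**Figure D4:**
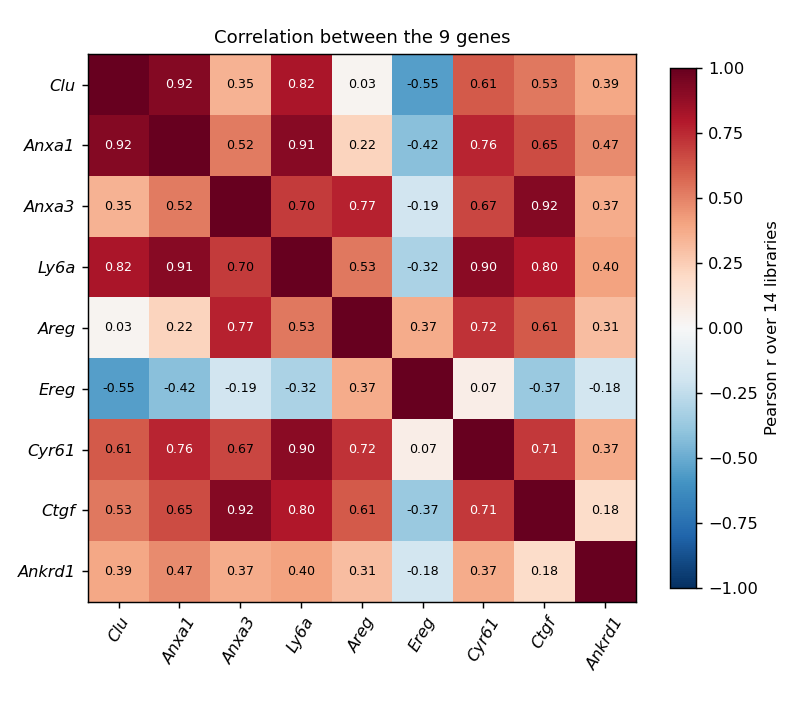
Pearson's r between the 9 genes over 14 libraries (colour from -1 to 1, values printed). *Clu*, *Anxa1* and *Ly6a* form a group at 0.82 to 0.92, *Anxa3* pairs with *Ctgf* at 0.92, and *Ereg* runs against *Clu* at -0.55.

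Other genes of the fetal-like and regenerative program, from a list of 18 with 17 tested, were higher in the double knockout than in the single knockouts. Of the 17, 8 rose and 0 fell against *Rnaseh2b*ΔIEC (median difference 0.47, against 0.00 over all genes, 25.5% of which were called), and 8 rose and 0 fell against *Atg16l1*ΔIEC (median 0.36, 25.1% called). Against WT 1 rose and 0 fell (median 0.13, 16.1% called, 8.10% higher and 8.01% lower). That gene was *Anxa10*, an annexin known from gastric epithelium, at 8.96, 8.68, 9.63 and 9.42 in the double knockout and 7.86 to 8.38 in WT (1.02, standard error 0.21, limma adjusted p = 0.0073). It was also higher than in *Rnaseh2b*ΔIEC (1.59, limma adjusted p = 0.0011) and *Atg16l1*ΔIEC (1.47, limma adjusted p = 0.00057), in 4 of 4 libraries each time. *Msln*, which encodes the surface protein mesothelin, stood at 8.93, 8.98, 9.85 and 9.48 in the double knockout, 7.05, 7.28, 9.02 and 9.11 in WT, 7.31 and 7.75 in *Rnaseh2b*ΔIEC and 7.24 to 8.41 in *Atg16l1*ΔIEC. It rose by 1.78 and 1.60 against the single knockouts (limma adjusted p = 0.028 and 0.02). *S100a6*, a calcium-binding protein, rose by 1.36 and 1.18 (limma adjusted p = 0.014 and 0.011), and *Il1rn*, the secreted interleukin 1 receptor antagonist, by 1.36 and 0.96 (limma adjusted p = 0.0059 and 0.014). With paired libraries treated as correlated, 2, 3 and 0 of the 17 remained called against *Rnaseh2b*ΔIEC, *Atg16l1*ΔIEC and WT, *Anxa10* among those 2 and among those 3. With a lane term the counts were 7, 3 and 3, and with pairs averaged 0 genes of this, the YAP target or the stem cell list passed in any comparison.

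The single knockouts had fewer calls in this list. In *Rnaseh2b*ΔIEC against WT 1 of 17 rose and 4 fell (median -0.24), beside 26.7% of all genes called, 14.4% higher and 12.3% lower. *Il1rn* fell by 0.99 (limma adjusted p = 0.027) and *Anxa5*, a phosphatidylserine-binding annexin, by 0.50 (limma adjusted p = 0.0095). In *Atg16l1*ΔIEC 0 rose and 2 fell (median -0.22), beside 19.1% of all genes called, 8.73% higher and 10.4% lower. Among the 2 was *Cxadr*, a tight junction protein that serves as a virus receptor, which fell by 0.27 (limma adjusted p = 0.013). These shares of calls are near or below those of all genes. None of these calls held with paired libraries treated as correlated. Between the single knockouts 0 of 17 passed limma's adjusted test and 2 had an unadjusted p under 0.05. Across the WT pairs 13 of 17 were higher in the Xist-high libraries (median gap 0.31), as were 13 in *Atg16l1*ΔIEC (0.17) and 16 in the double knockout (0.30), and 10 of 17 were higher in all 3 genotypes, beside 12.5% of all genes.

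**Figure D5:**
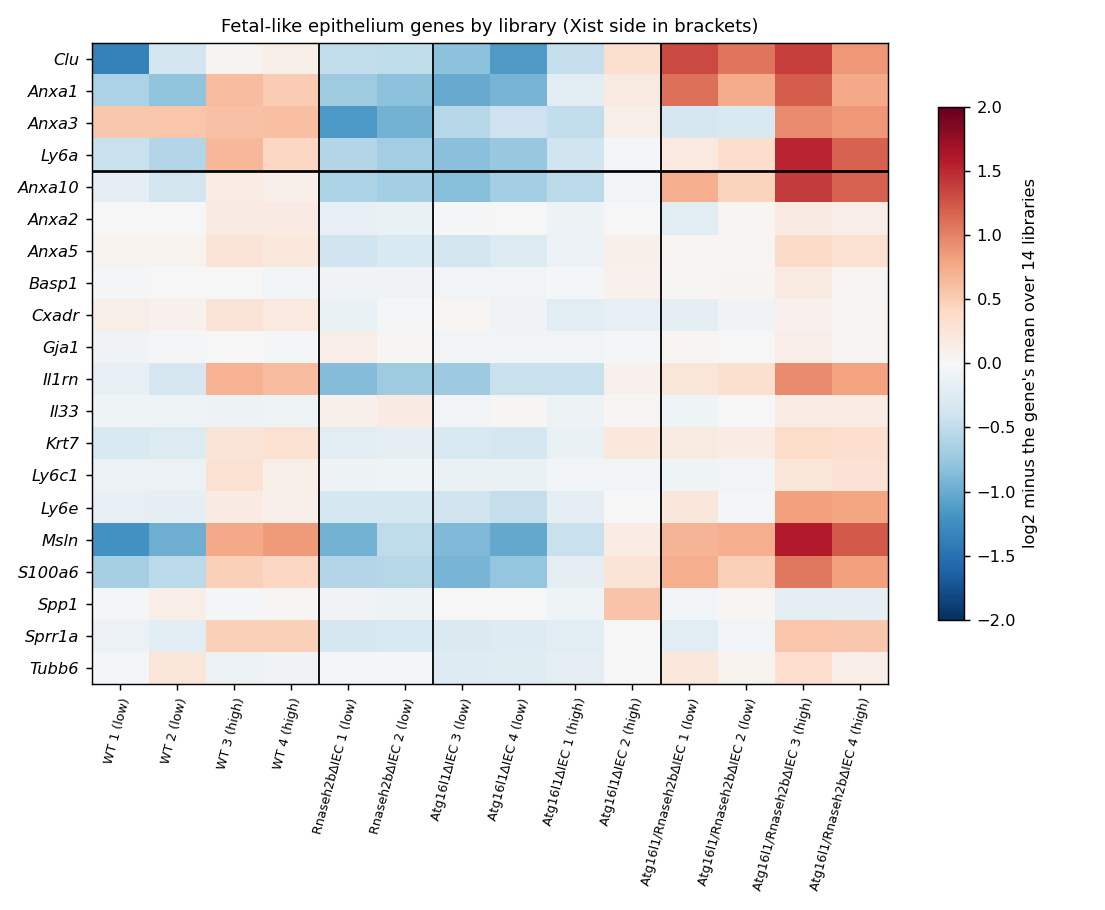
Expression of *Clu*, *Anxa1*, *Anxa3* and *Ly6a* (above the line) and of 16 other fetal-like and regenerative genes in the 14 libraries, as log2 minus the mean of the gene over all libraries (colour). Columns are grouped by genotype, Xist-low before Xist-high. *Msln*, *S100a6*, *Il1rn* and *Anxa10* are high in the double knockout, and *Msln*, *S100a6* and *Il1rn* also in WT 3 and 4.

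Genes of the Hippo pathway had few calls. *Yap1* stayed between 11.43 and 11.61 in every library, and its 6 differences between genotypes ran from -0.07 to 0.12, none of them called. *Wwtr1*, which encodes TAZ, read 6.84 to 7.74 in WT, 6.94 and 7.17 in *Rnaseh2b*ΔIEC, 6.71 to 7.21 in *Atg16l1*ΔIEC and 6.99, 7.24, 8.05 and 8.0 in the double knockout, also without a call. Unlike *Cyr61*, it was lower in WT 3 and 4 (6.84 and 6.89) than in WT 1 and 2 (7.68 and 7.74). Of the 19 core and partner genes, 3 fell and 0 rose in *Rnaseh2b*ΔIEC (12.3% of all genes fell), 2 fell and 0 rose in *Atg16l1*ΔIEC (10.4% fell), and 0 passed limma's adjusted test in the double knockout against WT, where 1 had an unadjusted p under 0.05. All calls of this list were lost with paired libraries treated as correlated. The TEAD factor gene *Tead1* fell by 0.20 and 0.18 in the single knockouts (limma adjusted p = 0.032 and 0.028). *Vgll4*, an inhibitor of TEAD, fell by 0.22, the Hippo kinase gene *Stk3* by 0.21 in *Rnaseh2b*ΔIEC (limma adjusted p = 0.017 and 0.028), and the kinase gene *Lats2* by 0.24 in *Atg16l1*ΔIEC (limma adjusted p = 0.015).

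Of 20 other YAP and TAZ targets, 16 were tested. In *Rnaseh2b*ΔIEC against WT 1 rose and 3 fell (median -0.21, beside 26.7% of all genes called), and in *Atg16l1*ΔIEC 0 rose and 4 fell (median -0.25, beside 19.1%), shares near those of all genes. *Nt5e*, an ectoenzyme that makes adenosine, fell by 1.25 and *F3*, the tissue factor that starts coagulation, by 1.18 in *Rnaseh2b*ΔIEC (limma adjusted p = 0.017 and 0.011). *Axl*, a receptor kinase, rose by 0.25 there (limma adjusted p = 0.0069). *Ajuba*, a LIM protein that holds back the Hippo kinases, fell by 0.51 in *Atg16l1*ΔIEC (limma adjusted p = 0.0077). The double knockout had 4 up and 1 down against *Rnaseh2b*ΔIEC, 4 up and 0 down against *Atg16l1*ΔIEC, and 1 up against WT, beside 25.5%, 25.1% and 16.1% of all genes called. *Myof*, a membrane repair protein, rose by 1.32 and 1.09 against the single knockouts (limma adjusted p = 0.0074 and 0.008), and *Ptpn14*, a phosphatase that restrains YAP, by 0.68 and 0.47 (limma adjusted p = 0.003 and 0.008). *Nt5e* split in the double knockout as *Anxa3* did, at 6.46 and 6.59 against 7.91 and 7.92. With paired libraries treated as correlated, *Myof* and *Ptpn14* remained called against *Rnaseh2b*ΔIEC and 0 genes in the other 5 comparisons. Of the 4 other CCN family genes 0 passed the filter.

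Among ligands and receptors of the EGF family, 10 of 13 were tested. *Egfr*, the receptor for amphiregulin and epiregulin, was lower in both single knockouts and not in the double. It stood at 9.24 to 9.44 in WT, 9.03 and 9.04 in *Rnaseh2b*ΔIEC, 9.03 to 9.16 in *Atg16l1*ΔIEC and 9.39 to 9.57 in *Atg16l1/Rnaseh2b*ΔIEC organoids. It fell by 0.33 and 0.27 against WT (limma adjusted p = 0.0037 and 0.005), and was higher in the double knockout than in either by 0.47 and 0.41 (limma adjusted p = 0.00061 and 0.00045). The difference of 0.14 between the double knockout and WT was not called (limma adjusted p = 0.089). *Lrig1*, which restrains EGF receptors, fell by 0.38 and 0.34 in the single knockouts (limma adjusted p = 0.0012 and 0.00082). *Nrg4*, a ligand of ERBB4, was 1.10 and 0.87 lower in the double knockout than in the single knockouts (limma adjusted p = 0.003 and 0.0038), the same direction as *Ereg*. The list as a whole had 1 gene up and 2 down in each single knockout, beside 26.7% and 19.1% of all genes called. With paired libraries treated as correlated the *Egfr* calls against WT were lost and those of *Lrig1* and *Nrg4* given here were kept.

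Genes known to report signalling through ERK, the kinase downstream of the EGF receptor, were counted next. Of 14 tested, 1 rose and 4 fell in *Rnaseh2b*ΔIEC (26.7% of all genes called), 2 rose and 4 fell in *Atg16l1*ΔIEC (19.1%), and 5 rose and 0 fell in the double knockout against *Rnaseh2b*ΔIEC (25.5%). *Phlda1* read 9.79, 9.91, 10.17 and 10.19 in WT, 9.16 in both *Rnaseh2b*ΔIEC libraries, 8.91 to 9.32 in *Atg16l1*ΔIEC and 10.18 to 10.48 in the double knockout. It fell by 0.86 and 0.88 (limma adjusted p = 0.00051 and 0.00014), and was 1.18 and 1.20 higher in the double knockout than in the single ones (limma adjusted p = 0.00014 and 2e-05). *Ier3*, an early response gene, fell by 1.33 and 1.11 (limma adjusted p = 0.00028 and 0.0003), and the growth regulator *Myc* by 0.45 and 0.69 (limma adjusted p = 0.015 and 0.00048). *Dusp4*, a phosphatase of ERK, fell by 0.53 and 0.32 in the single knockouts (limma adjusted p = 0.0041 and 0.022) and was 0.43 lower in the double knockout than in WT (limma adjusted p = 0.0081). *Etv4* and *Fosl1*, transcription factors induced by ERK, rose in the double knockout against WT by 0.50 and 0.33 (limma adjusted p = 0.016 and 0.0089). With paired libraries treated as correlated, *Phlda1* and *Ier3* remained called in both single knockouts against WT and in the double knockout against both, and *Egfr* in the latter 2. The calls of *Etv4*, *Fosl1* and *Dusp4* in the double knockout against WT were lost, as were those of *Myc* in *Rnaseh2b*ΔIEC and *Dusp4* in *Atg16l1*ΔIEC.

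The adult crypt program was examined beside the fetal-like one. Of 9 stem cell genes, 0 rose and 3 fell in *Rnaseh2b*ΔIEC (beside 12.3% of all genes lower), 0 rose and 7 fell in *Atg16l1*ΔIEC (median -0.52, beside 10.4% lower), and 7 rose and 0 fell in the double knockout against *Atg16l1*ΔIEC (median 0.48, beside 12.6% higher). With paired libraries treated as correlated these counts of calls were 2, 3 and 4. The double knockout had 2 up and 1 down against *Rnaseh2b*ΔIEC (25.5% of all genes called). Against WT it had 0 up and 2 down (16.1% called). With paired libraries treated as correlated 1 and 0 calls were left in these 2 comparisons. *Lgr5*, the marker of crypt base stem cells, fell by 0.97 and 0.85 against WT (limma adjusted p = 0.00032 and 0.00024) and was 0.75 and 0.62 higher in the double knockout than in the single knockouts (limma adjusted p = 0.0019 and 0.0018). *Ascl2*, a transcription factor of these cells, fell by 0.52 in *Atg16l1*ΔIEC (limma adjusted p = 0.0023). *Olfm4*, a secreted marker of these cells, was 1.51 lower in the double knockout than in WT (limma adjusted p = 0.0049). In that fit *Lgr5* kept all these calls and *Ascl2* its own, and *Olfm4* lost its call. Unlike the fetal-like list, the stem cell genes were on the whole not higher in the Xist-high libraries of WT (3 of 9, median gap -0.07) or of the double knockout (2 of 9, -0.28). In *Atg16l1*ΔIEC 8 of 9 were higher (0.26), beside 13 of 17 of the fetal-like list (0.17). In bulk RNA, fewer cells of a type and less RNA per cell cannot be told apart, for *Clu* and *Anxa1* as for *Lgr5*.

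Of the other annexins, all 10 were tested, and *Anxa2*, *Anxa5* and *Anxa10* are also in the fetal-like list. *Anxa4* fell by 0.44 and 0.19 in the single knockouts (limma adjusted p = 0.00033 and 0.015), and *Anxa5* by 0.50 in *Rnaseh2b*ΔIEC, while *Anxa13* and *Anxa11* rose by 0.27 and 0.20 there (limma adjusted p = 0.0082 and 0.041). Against WT, *Anxa10* and *Anxa8* rose in the double knockout by 1.02 and 0.78 (limma adjusted p = 0.0073 and 0.0069) and *Anxa7* by 0.09 (limma adjusted p = 0.03). Against *Rnaseh2b*ΔIEC 5 of the 10 rose and 1 fell, beside 25.5% of all genes called. With paired libraries treated as correlated, the *Anxa4* call in *Rnaseh2b*ΔIEC was the only one named in this paragraph to hold. The family thus held genes moving both ways, and the high level in the double knockout was seen in *Anxa1*, *Anxa8* and *Anxa10* rather than in the abundant *Anxa2*, at 13.67 to 14.06 throughout.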

How the data were processed

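Small intestinal organoids of 4 genotypes were analysed (WT, n = 4; *Rnaseh2b*ΔIEC, n = 2; *Atg16l1*ΔIEC, n = 4; *Atg16l1/Rnaseh2b*ΔIEC, n = 4), with groups taken from the sample labels. The authors prepared stranded mRNA libraries, used cutadapt for trimming, TopHat2 for alignment to GRCm38, HTSeq for counting and DESeq2 (versions not given in the sources used here). They left out 2 *Rnaseh2b*ΔIEC samples for their read counts. The authors deposited log2 values for 18781 genes, and the transformation is not named. The median SD between libraries was 0.057 for genes at 3 to 4 and 0.137 at 7 to 8, so differences of low genes such as *Ankrd1* are understated. The table holds no read totals, so depth is unknown and count tests were not used.

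The 12802 genes averaging 3.32 or more in log2 units (linear value 10) were fitted with limma 3.58.1 in R 4.3.3 (eBayes with a mean trend, all 14 libraries, 1 mean per genotype, Benjamini-Hochberg over all genes, two-sided threshold of 0.05). Scripts were first tested on simulated data. Coordinates are from GENCODE M21 and promoters from RefSeq. Figures used matplotlib 3.10.9. The 9 genes and all lists were chosen with earlier results of these data known, and named list genes are the called genes whose libraries do not overlap, at most 4 per list and comparison, with *Yap1*, *Wwtr1* and *Egfr* always. The values of 1 gene of the fetal-like list are not reported here. Where the text names *Ano1*, *Col4a1*, *Msln* and others for their gaps between pairs, *Olfm4*, *Nt5e* or *Anxa2* for their levels, or *Fos* for its likeness to *Cyr61*, values had been seen. Alternatives were pseudocounts, filters, scaling, no mean trend, a robust fit, lane, the replicate block, fits of fewer groups, fits within a lane, averaged pairs and leaving out each library. Pairs as correlated libraries, *Xist* side as a covariate and the Xist-low libraries alone were added after seeing the data.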

Additional observations from a re-analysis of the deposited data

Results flagged for a closer look

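Each deletion was looked at separately, and 7 of the 9 genes were flagged for at least 1 of them. A flag means that every library of that single knockout lay on one side of the WT mean. In addition, every double knockout library lay on the other side of the mean of the other single knockout. *Clu* and *Anxa1* were flagged only for the loss of *Rnaseh2b*, and *Ankrd1* only for that of *Atg16l1*. The share of all genes meeting this rule was not computed, so the count is not a result about these genes. Single libraries of the groups still overlapped for some of these genes, *Clu* and *Anxa1* against WT among them. The difference between the effects was not tested, since it uses the double knockout. For *Clu* and the loss of *Rnaseh2b* it was 1.80 (-0.11 without and 1.69 with *Atg16l1* loss), and for *Anxa1* 2.12 (-0.68 and 1.44). It was 2.25 for *Anxa3*, 1.96 for *Ly6a*, 1.06 for *Cyr61* and 1.04 for *Ctgf*, and in these 4 genes the loss of *Atg16l1* without and with *Rnaseh2b* loss was opposed as well. *Ankrd1*, close to the filter, differed by 0.13 for the loss of *Atg16l1*. For *Anxa3*, *Ly6a*, *Cyr61* and *Ctgf*, double knockout libraries 3 and 4, which were Xist-high and in lane 1, carried the larger part of the positive effect. In 36 groups of 4 libraries (the 9 genes with *Yap1*, *Wwtr1* and *Egfr*), 0 held a library far from the other 3 by Dixon's criterion.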

How the results depend on the processing

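The counts of called genes were 2 in *Rnaseh2b*ΔIEC against WT, 1 in *Atg16l1*ΔIEC against WT and 0 between the single knockouts. In *Rnaseh2b*ΔIEC the count was 1 without a filter, with a filter of 50 and with the replicate block. It was also 1 with *Xist* side as a covariate and with pairs as correlated libraries. It was 0 with lane as a covariate or with pairs averaged, and 3 with total scaling or with only the groups compared. The count was 4 in the Xist-low libraries alone and 1 with any library left out. In *Atg16l1*ΔIEC it was 0 with lane, pairs averaged or correlated pairs, 2 with the replicate block, 3 with only the groups compared, 4 with *Xist* side or in the Xist-low libraries, and 0 to 2 with a library left out. Between the single knockouts it was 1 with lane, within lane 2 and in the Xist-low libraries, each time *Anxa3*. With lane as a covariate 2 called differences reversed, *Ctgf* to 0.09 in *Rnaseh2b*ΔIEC and *Anxa3* to 0.32 in *Atg16l1*ΔIEC. Uncalled differences also turned positive. These were *Ly6a* (0.43), *Areg* (0.31) and *Cyr61* (0.52) in *Rnaseh2b*ΔIEC. In *Atg16l1*ΔIEC they were *Ly6a* (0.56), *Areg* (0.44), *Cyr61* (0.55) and *Ctgf* (0.22). The lane term comes from the double knockout, whose 2 lanes are also its 2 pairs. The causes of the other changes were not tested. Same-numbered libraries of different genotypes did not deviate together (r of -0.41 to 0.46, median -0.03, n = 18), so the numbers do not pair them. The number of the 9 means above the comparator in the double knockout kept within 1.5 times of 5, 8 and 8 in the alternatives run. Over all genes, in the order *Rnaseh2b*ΔIEC and *Atg16l1*ΔIEC against WT, single knockouts against each other, and double knockout against WT, *Rnaseh2b*ΔIEC and *Atg16l1*ΔIEC, calls numbered 3424, 2450, 872, 2063, 3262 and 3218. They were 728, 384, 61, 85, 692 and 478 with correlated pairs, and 0, 1, 2, 0, 0 and 0 with pairs averaged, where 7 values remain and 2103, 1579, 789, 1311, 2044 and 1944 genes had an unadjusted limma p under 0.05. With lane the first 3 were 1504, 1586 and 1622, the replicate block gave 424 for the third, and the Xist-low libraries, whose spread is that within single pairs, gave 4747, 4050, 2859, 5343, 5226 and 6390.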
